A study of Mus musculus with 15 samples.

Results

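Integrins are cell surface receptors made of an alpha and a beta subunit. The transcripts described here are those of 10 integrin subunit genes, Itgam, Itgal, Itga4, Itga5, Itga6, Itgav, Itgb1, Itgb2, Itgb3 and Itgb5, chosen by gene symbol. All 10 were found among the 54390 genes of each count table. They were measured by bulk RNA sequencing of BV2 cells, an immortalised mouse microglial line, in 15 libraries. WT cells kept in medium alone were called non-foamy (n = 4), and WT cells given 20 μg/ml of soluble cholesterol overnight were called foamy (n = 4). Trem2-/- cells, in which the lipid receptor gene Trem2 had been targeted with Cas9 and a guide RNA, were likewise non-foamy without cholesterol (n = 3) or foamy after 20 μg/ml (n = 4). Per the study's methods, Trem2-/- lines were grown from single cells. Genotype and clone therefore cannot be told apart, and nothing in the labels ties the replicates to separate lines, so p-values measure the spread between these libraries, which may be technical.

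An alpha and a beta subunit pair inside the cell and reach the surface together, and the pair decides which ligand is bound. Itgb2 is the beta subunit of the leukocyte integrins and pairs with Itgal to form LFA-1, with Itgam to form Mac-1 (complement receptor 3, CD11b/CD18) and with Itgax to form complement receptor 4. Itgb1 pairs with many alpha subunits, among them Itga4 (VLA-4, a receptor for VCAM-1 and fibronectin), Itga5 (the classical fibronectin receptor), Itga6 (a laminin receptor) and Itgav. Itgav also pairs with Itgb3 and Itgb5 to bind vitronectin and the apoptotic cell bridging protein Mfge8. On microglia and macrophages these receptors serve adhesion, migration and phagocytosis, and CD11b is the usual surface marker of the lineage.

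The stretch just upstream of a gene's start is where many of the factors that set its transcript level bind. RefSeq promoter windows (GRCm38.p6) were at hand for 6 of the 10 genes, and the 250 bases before the start are printed for 5 of them. Itga4 (chr2:79255176-79255425, plus strand), Itga5 (chr15:103366792-103367041, minus strand) and Itgb5 (chr16:33829415-33829664, plus strand) are shown because their transcripts were higher in Trem2-/- non-foamy cells. Itgam (chr7:128062390-128062639, plus strand) is shown as the lineage marker, and Itgb1 (chr8:128685404-128685653, plus strand) as the most abundant subunit. Each reads 5′ to 3′ on the gene's strand, with capitals marking matches on either strand to GAGGAA, a core site of the myeloid factor PU.1, or to GGGCGG, the GC box of Sp1.
Itga4: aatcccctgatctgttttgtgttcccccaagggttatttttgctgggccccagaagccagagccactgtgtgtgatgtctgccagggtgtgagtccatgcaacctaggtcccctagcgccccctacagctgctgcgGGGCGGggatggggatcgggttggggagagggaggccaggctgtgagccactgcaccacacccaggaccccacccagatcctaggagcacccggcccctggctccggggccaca
Itga5: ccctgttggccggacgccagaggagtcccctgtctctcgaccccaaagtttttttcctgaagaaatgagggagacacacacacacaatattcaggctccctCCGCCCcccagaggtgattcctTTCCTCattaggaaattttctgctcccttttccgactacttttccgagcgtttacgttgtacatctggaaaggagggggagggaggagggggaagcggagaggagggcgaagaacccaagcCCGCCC
Itgb5: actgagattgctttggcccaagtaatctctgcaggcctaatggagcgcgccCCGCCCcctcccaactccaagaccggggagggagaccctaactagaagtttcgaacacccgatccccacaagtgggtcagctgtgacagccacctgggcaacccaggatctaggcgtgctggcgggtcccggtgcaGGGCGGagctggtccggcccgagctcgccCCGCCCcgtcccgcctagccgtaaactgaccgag
Itgam: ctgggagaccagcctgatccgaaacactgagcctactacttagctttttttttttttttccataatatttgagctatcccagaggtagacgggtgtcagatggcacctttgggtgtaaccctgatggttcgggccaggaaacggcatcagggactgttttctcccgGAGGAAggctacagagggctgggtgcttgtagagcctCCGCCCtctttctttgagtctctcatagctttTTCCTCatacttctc
Itgb1: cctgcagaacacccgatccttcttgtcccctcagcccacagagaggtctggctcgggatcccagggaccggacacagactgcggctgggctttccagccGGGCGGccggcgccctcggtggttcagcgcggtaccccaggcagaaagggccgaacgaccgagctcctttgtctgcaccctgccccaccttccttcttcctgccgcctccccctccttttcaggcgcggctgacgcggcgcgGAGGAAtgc

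No match to GAGGAA lay in the window of Itga4 or Itgb5. Itga5 and Itgb1 had 1 each, and Itgam and Itgav, whose window is not printed, had 2 each. The GC box GGGCGG was matched 3 times in Itgb5, 2 times in Itga5, 1 time each in Itga4, Itgam and Itgb1, and not in Itgav. None of these matches overlapped a GAGGAA match. Over all 32851 promoter windows of the same length, 23.3% held GAGGAA and 32.7% held GGGCGG, so either motif is common. Neither the AP-1 site TGANTCA, nor TATAAA, nor the E box CACGTG was found in the 6 windows. These were present in 6.75%, 12.4% and 6.02% of all windows. The windows differed in CpG dinucleotides, against a median of 6 over all windows. There were 6 in Itga4, 6 in Itgam, 11 in Itga5, 18 each in Itgb5 and Itgav, and 21 in Itgb1. These are letter matches only, and no binding was measured.

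The libraries held 23538963 to 41683825 counted reads each. No 2 replicates were alike within sampling error, as the chi-square averaged 5.98 to 45.8 per gene in the 21 pairs within groups. All 12 myeloid markers examined were present at 1 CPM or more on average (CPM, counts scaled so that all libraries have a common total), led by Lyz2 at a mean of 4740 CPM, and all 5 fibroblast markers had no read. Trem2 itself was read in every library, at 327 to 415 CPM in WT and 214 to 232 CPM in Trem2-/- cells, with no overlap between the genotypes. Per the paper, flow cytometry showed knockout of the Trem2 protein in its Trem2-/- BV2 cells. Transcript reads do not measure protein. Library 3 of WT non-foamy cells stood apart from its group. Its long genes were under-represented (slope of log2 level on gene length −0.118 per doubling), it was the smallest library, and it was the lowest of its group for 8 of the 9 integrin genes tested. WT foamy library 1 had the opposite trend (slope 0.123) and was the highest of its group for 7 of 9. The other 13 libraries had slopes of −0.0663 to 0.0434.

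The order of transcript abundance was much the same in all 4 groups. On the scale of CPM per kilobase of exon, which allows genes to be compared, Itgb1 stood first in non-foamy WT cells at 178.6 ± 8.41 (SD, n = 4), followed by Itgb2 at 29.4 ± 1.37 and Itga4 at 12.0 ± 0.965. These 3 did not overlap with each other or with the next gene in any group. Below them lay Itgb5 (7.10 ± 1.48), Itga5 (6.08 ± 0.818), Itgam (5.31 ± 0.226), Itgav (5.09 ± 0.685) and Itga6 (3.73 ± 0.850), and each of these overlapped with its neighbour in WT cells, foamy or not. In Trem2-/- cells the neighbours Itgb5 and Itga5 no longer overlapped (9.81 ± 1.36 against 7.77 ± 0.251 without cholesterol, n = 3). Neither did Itgam and Itgav, while Itgav and Itga6 still overlapped. Itga5 and Itgam were apart without cholesterol and overlapped with it. A group of 3 libraries separates more easily than a group of 4. Itgal, the alpha subunit of LFA-1, was the lowest gene with a steady signal, at 0.709 ± 0.0982 in non-foamy WT cells.

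**Figure D1:**
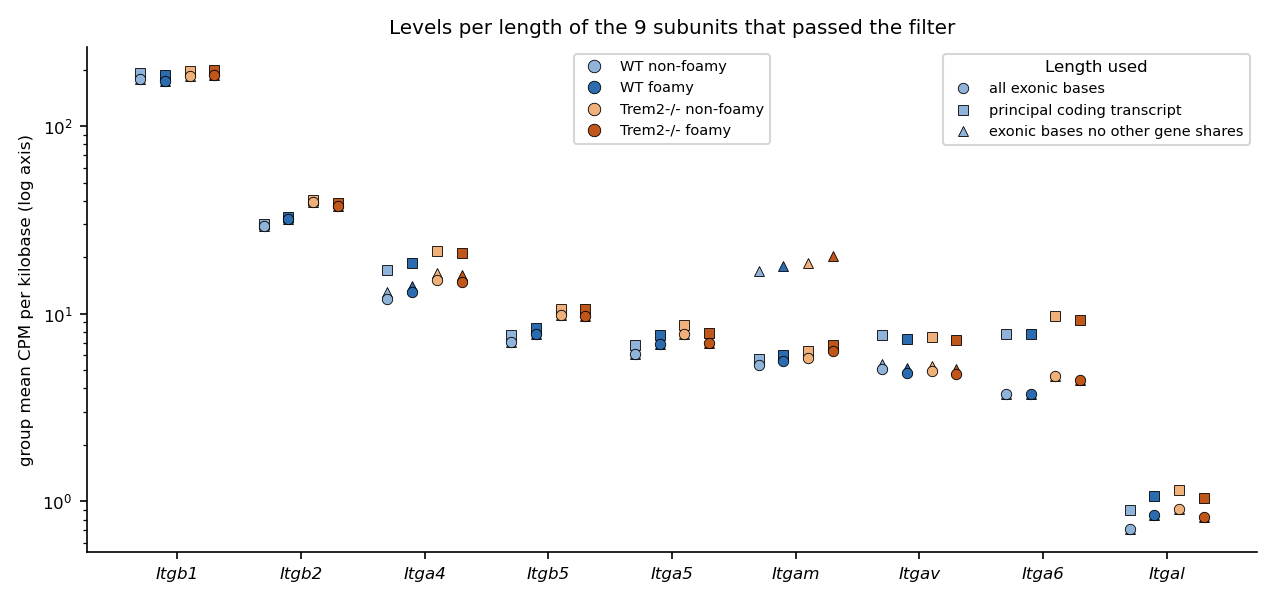
Group mean CPM per kilobase (log axis) for 9 integrin subunits in the 4 groups (colours), computed with 3 lengths (symbols). Itgb1 lies highest and Itgal lowest in every group by any length, and the places of Itgam, Itgav and Itga6 between them shift with the length used.

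The middle of this order depended on the length assigned to each gene. With the length of the principal coding transcript in place of all exonic bases, Itga6 in non-foamy WT cells was at 7.81 and Itgav at 7.75 CPM per kilobase, beside Itgb5 at 7.68. Itgam carries a further uncertainty, because 68.7% of its exonic bases are also annotated to the readthrough gene Gm49368, which received 0 to 14 reads per library. If reads on the shared bases were discarded as ambiguous, Itgam in non-foamy WT cells was at 17.0 rather than 5.31 CPM per kilobase, above Itga4 at 13.0 computed the same way. Itgam itself had 570 to 1309 reads per library, so reads on the shared bases were at most rarely counted for Gm49368. The adhesion complex gene Ilk, with 89.7% of its exonic bases shared with other genes, averaged only 0.012 to 0.073 CPM in the 4 groups. The counting rule for such bases is not given in the sources used here and was not tested. The fold changes of Itgam between groups do not rest on the length.

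Among the 6 alpha subunits of the list, Itga4 made up the largest share of the summed level per length in every group when all exonic bases were taken as the length. Itgax is not among the 6 and is left out of these shares. In non-foamy and foamy WT cells it was at 11.94 and 13.9 CPM per kilobase, against 11.96 and 12.99 for Itga4. In non-foamy and foamy Trem2-/- cells Itgax was at 21.61 and 19.53, against 15.13 and 14.76 for Itga4. With unshared bases Itgam lay above Itga4 in all 4 groups, at 16.96 against 13.0 CPM per kilobase in non-foamy WT cells and 20.2 against 16.0 in foamy Trem2-/- cells, so the alpha shares given here hold for the first length alone. By that length Itga4 held 36.5% ± 1.89 in non-foamy WT and 37.4% ± 2.09 in foamy WT cells (n = 4 each). In Trem2-/- cells it held 38.6% ± 1.12 without cholesterol (n = 3) and 38.7% ± 2.38 with it (n = 4). Itgav held 15.5% ± 0.533 in non-foamy WT cells (14.8% to 16.1%) and 12.6% ± 0.879 in non-foamy Trem2-/- cells (11.6% to 13.2%), and these ranges did not overlap. Among the beta subunits, Itgb1 held 83.0% ± 1.67 in non-foamy WT and 79.0% ± 1.52 in non-foamy Trem2-/- cells, and Itgb2 held 13.7% ± 0.926 and 16.8% ± 0.962, again without overlap (Itgb2 12.5% to 14.6% against 15.7% to 17.6%). A share also changes when the other subunits of its sum change. Itgav itself was at 54.71 ± 7.356 CPM in non-foamy WT and 53.09 ± 3.575 CPM in non-foamy Trem2-/- cells. Itgb1 was at 728.9 ± 34.33 and 754.0 ± 12.27 CPM. Shares are a description of transcripts and no test was made on them.

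Itgb3, the partner of Itgav in the vitronectin receptor of osteoclasts and platelets, was nearly absent. It had 8 reads in all 15 libraries together, 4 in WT non-foamy library 4 and 2 each in WT foamy libraries 1 and 4, and none in the other 12. A count of 0 allows up to 3 reads, which is 0.0720 to 0.127 CPM at these depths, and covers counting error only. It did not pass the filter on low counts and was not tested, so 9 of the 10 genes entered the comparisons. Itgb5, the other vitronectin-binding partner of Itgav, was read in every library.

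**Figure D2:**
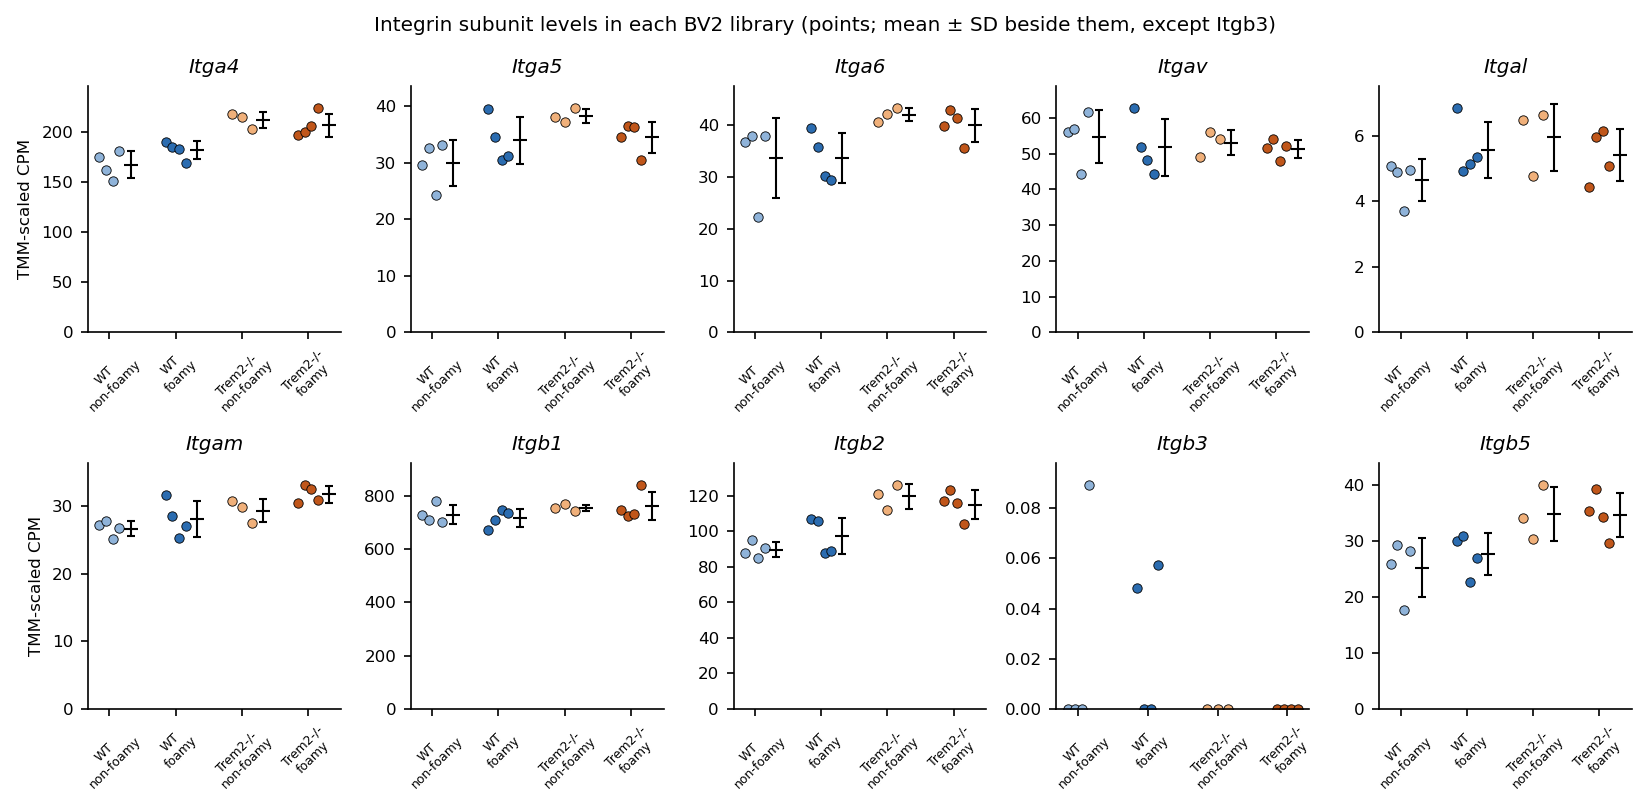
TMM-scaled CPM of each of the 10 subunits in every library (points, axes from 0) in the 4 groups, with mean ± SD beside the points except for Itgb3. Itga4, Itga5, Itga6, Itgb2 and Itgb5 lie higher in all 3 Trem2-/- non-foamy libraries than in all 4 WT non-foamy libraries, as do 22.6% of all genes tested, and Itgb3 lies at or near 0 throughout.

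The first question was whether cholesterol loading alters integrin transcripts. In WT cells no subunit passed the test. Using edgeR's quasi-likelihood test with Benjamini-Hochberg adjustment over 14237 genes, 0 of 9 were called, where 2.80% of all genes were, and DESeq2 also called 0. None of the 9 had an unadjusted p under 0.05. The largest estimate was for Itgal, at a log2 fold change of 0.25 ± 0.15 (s.e.; 95% interval −0.07 to 0.56). Itga5, Itga4 and Itgb2 were estimated at 0.18, 0.12 and 0.12. Intervals were narrowest for Itgb1, the most deeply counted gene, at −0.16 to 0.10, and for Itga4 at −0.01 to 0.25. The median of the 9 estimates was 0.12, against 0.0053 over all genes tested.

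In Trem2-/- cells 0 of 9 were called as well, where 0.140% of all genes were, with DESeq2 calling 0 and none having an unadjusted p under 0.05. Here 7 of the 9 estimates lay below 0, with a median of −0.05. Itga5 was at 38.2, 37.2 and 39.6 CPM without cholesterol and at 34.5, 36.6, 36.3 and 30.6 CPM with it. All 4 foamy libraries thus lay below the 3 non-foamy ones, as in 3.88% of all genes tested, but the log2 fold change of −0.15 ± 0.10 did not pass (adjusted p = 0.863, edgeR). Itgam lay in the other direction, at 0.11 ± 0.08 (adjusted p = 0.867).

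Whether the response to cholesterol differed between genotypes was tested directly as an interaction, and 0 of 9 subunits were called, where 3.64% of all genes were. DESeq2 likewise called 0, and 1 had an unadjusted p under 0.05. That was Itga5, with a difference of −0.33 ± 0.14 on the log2 scale (adjusted p = 0.213 by edgeR). Its response was 0.18 in WT and −0.15 in Trem2-/- cells. When each library's trend on gene length and GC content was removed, a setting added after the data were seen, this difference was −0.30 and passed (adjusted p = 0.0313).

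Genotype was the comparison in which integrin transcripts differed. Without cholesterol, 4 of 9 subunits were higher in Trem2-/- than in WT cells and 0 were lower, where 43.6% of all genes were called in either direction and 21.0% were called higher. The share called was thus near that of all genes, and the 4 calls had 1 direction. DESeq2 called 4 as well. The 4 were the fibronectin and VCAM-1 receptor subunits Itga4 and Itga5, the leukocyte subunit Itgb2 and the vitronectin receptor subunit Itgb5. The median log2 fold change of the 9 was 0.34, against 0.0167 over all genes. In bulk RNA a higher level in each cell and a larger number of cells with the transcript cannot be told apart. Most of the 12 myeloid markers moved the same way, with 10 of 12 higher and 1, Cd14, lower. The summed level of the 12 was 7700 to 9450 CPM in WT and 13100 to 13700 CPM in Trem2-/- non-foamy libraries. Of the 4 platelet markers only 1, Pf4, averaged 1 CPM or more (mean 150 CPM), so their sum was nearly that of Pf4 alone. It was 114 to 152 CPM in WT and 162 to 173 CPM in Trem2-/- non-foamy libraries. Endothelial markers summed to 16.8 to 20.3 CPM in WT and 28.3 to 34.2 CPM in Trem2-/- non-foamy libraries. The 2 endothelial markers tested went opposite ways, with Vwf at 10.2 ± 0.587 and 29.5 ± 2.91 CPM and Kdr at 8.44 ± 1.31 and 2.10 ± 0.358 CPM. Of the 5 endothelial markers only these 2 averaged 1 CPM or more. Lymphocyte, neural and epithelial markers summed to at most 2.45 CPM in any library. All libraries are of BV2 cells, which the paper describes as a homogenous cell line. The part of the marker differences in the integrin result was not tested.

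Itgb2 (chr10:77530252-77565708, GRCm38, plus strand) had the firmest difference. It was counted at 88.1, 95.1, 85.2 and 90.7 CPM in the 4 WT non-foamy libraries and at 121.1, 112.0 and 126.2 CPM in the 3 Trem2-/- non-foamy libraries. Every Trem2-/- library lay above every WT library, which held for 22.6% of all genes tested. The log2 fold change was 0.42 ± 0.08 (1.33-fold; adjusted p = 0.000141, edgeR), and it was called under every alternative examined, at 0.27 with total counts alone.

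Itga4 (chr2:79255426-79333123, plus strand) was at 174.8, 161.9, 150.8 and 181.0 CPM in WT and 217.2, 214.9 and 202.3 CPM in Trem2-/- non-foamy cells, again without overlap. The log2 fold change was 0.34 ± 0.07 (1.26-fold; adjusted p = 0.000347). Antisense Cerkl shares 8.04% of the exonic bases of Itga4, and reads of the 2 genes there cannot be assigned without strand.

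Itga5 (chr15:103344286-103366763, minus strand) was at 29.7, 32.6, 24.4 and 33.2 CPM in WT and 38.2, 37.2 and 39.6 CPM in Trem2-/- non-foamy cells. The groups did not overlap, and WT library 3 was the lowest. The log2 fold change was 0.35 ± 0.10 (1.27-fold; adjusted p = 0.00764).

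Itgb5 (chr16:33829665-33949338, plus strand) was at 25.9, 29.2, 17.6 and 28.1 CPM in WT and 34.1, 30.4 and 40.0 CPM in Trem2-/- non-foamy cells. Here the lowest Trem2-/- library was only just above the highest WT library. The log2 fold change was 0.46 ± 0.14 (1.38-fold; adjusted p = 0.0096), and the call was lost without Trem2-/- non-foamy library 3, at 0.35 (adjusted p = 0.0792).

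The other 5 subunits did not pass without cholesterol. Itga6 was at 36.8, 37.8, 22.2 and 37.9 CPM in WT and 40.6, 42.2 and 43.2 CPM in Trem2-/- cells. The groups did not overlap, but WT library 3 was far below the rest and the estimate of 0.31 ± 0.13 missed the threshold (adjusted p = 0.0619, edgeR). Itga6 passed with no filter (adjusted p = 0.00429), and without WT non-foamy library 2 (0.0448) or library 4 (0.0415). Itgal was estimated at 0.35 ± 0.16 (adjusted p = 0.0931), with counts of 84 to 227 per library, and passed without Trem2-/- non-foamy library 2 (adjusted p = 0.0345). Itgam was at 0.14 ± 0.08 (95% interval −0.03 to 0.31), Itgb1 at 0.05 ± 0.07 (−0.09 to 0.19) and Itgav at −0.05 ± 0.10 (−0.26 to 0.17). The Mac-1 alpha subunit and the shared subunits Itgb1 and Itgav thus had the smallest estimates of the 9.

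**Figure D3:**
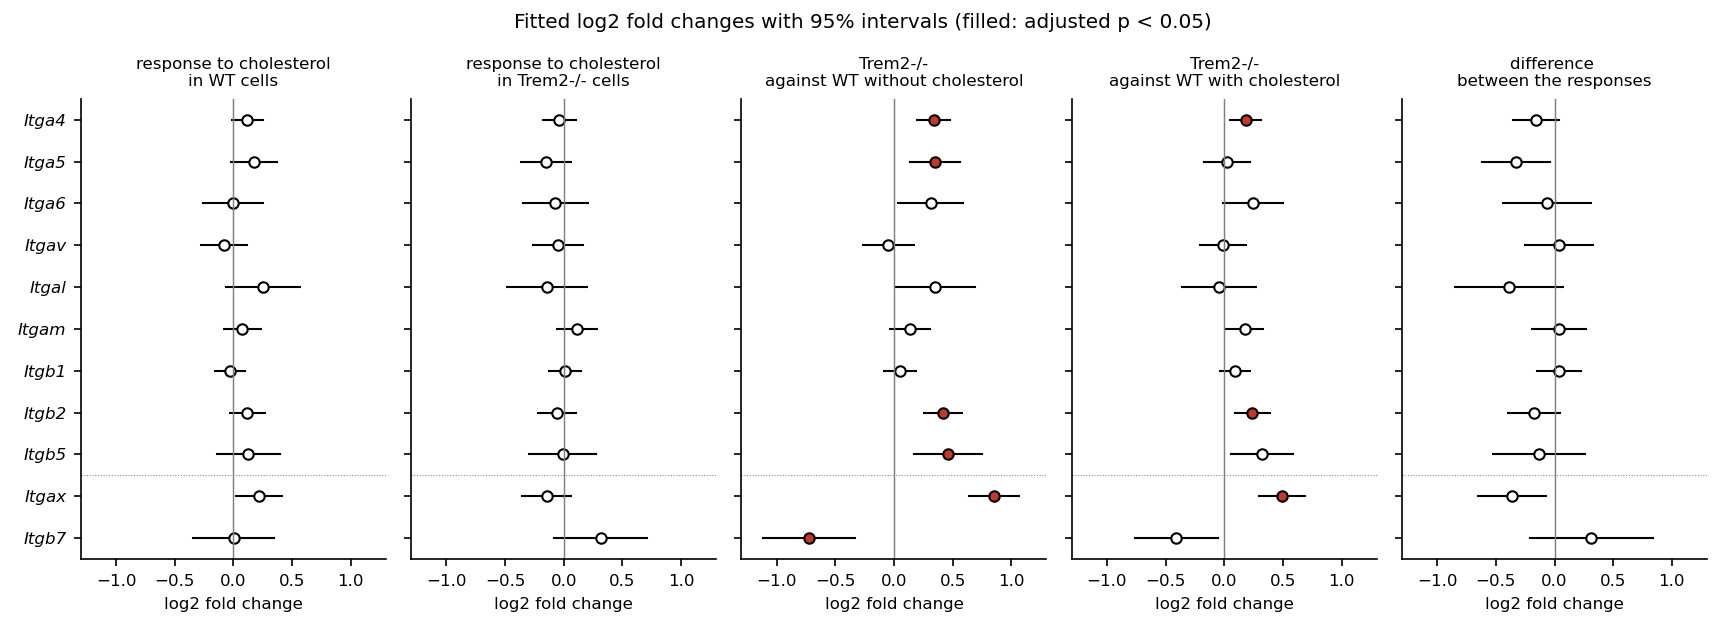
Fitted log2 fold changes (horizontal axis) with 95% intervals for the 9 tested subunits and, below the dotted line, Itgax and Itgb7, in each of 5 comparisons. Filled points passed an adjusted p of 0.05; they appear in the 2 genotype comparisons, with Itgax at 0.85 and Itgb7 at −0.72 the farthest from 0 without cholesterol.

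How the libraries were scaled bears on these values. With total counts alone in place of TMM factors (0.918 to 1.11), the median log2 fold change of all genes moved to −0.13 in both genotype comparisons, and every subunit moved down with it. Without cholesterol Itgb2 then stayed called at 0.27 (adjusted p = 0.0367), Itga4 (0.19, adjusted p = 0.0642), Itga5 (0.20, adjusted p = 0.241) and Itgb5 (0.31, adjusted p = 0.162) were no longer called, and the estimates of Itgam and Itgb1 turned to −0.01 and −0.09. Over all genes the calls went from 6207 (2985 higher) to 6199 (1820 higher) without cholesterol and from 4297 (2036 higher) to 4781 (1115 higher) with it. The estimates of the 4 subunits lay above the median of all genes under either scaling.

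With cholesterol fewer subunits differed between the genotypes, a change in number that was not itself tested. The 4 groups each enter several comparisons, which therefore share libraries. Of the 9 subunits, 2 were higher in Trem2-/- foamy than in WT foamy cells and 0 were lower, where 30.2% of all genes were called and 14.3% were called higher. The count is near that background, and the median of the 9 was 0.18 against 0.00033 over all genes. The 12 myeloid markers again summed higher, at 12700 to 14000 CPM against 8200 to 9780 CPM, a sum led by Lyz2 (6100 against 3671 CPM). Of the 12, 9 were called higher, 2 were not called and 1, Cd14, was lower (75.8 against 96.5 CPM).

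Itgb2 was at 107.0, 105.7, 88.0 and 89.1 CPM in WT foamy and 117.1, 123.4, 115.7 and 104.3 CPM in Trem2-/- foamy cells, so that the groups overlapped. Its log2 fold change was 0.24 ± 0.07 (1.18-fold; adjusted p = 0.0144, edgeR). Without WT foamy library 3, WT foamy library 4 or Trem2-/- foamy library 2 the call was lost (adjusted p = 0.0644, 0.0601 and 0.0515).

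Itga4 was at 189.6, 184.8, 182.8 and 169.3 CPM in WT foamy and 196.7, 199.7, 205.5 and 223.2 CPM in Trem2-/- foamy cells, and these did not overlap. Of all genes tested, 13.8% had all Trem2-/- foamy libraries above all WT foamy ones. The log2 fold change was 0.18 ± 0.06 (1.14-fold; adjusted p = 0.0341). It was lost without WT foamy library 2, 3 or 4 or Trem2-/- foamy library 3 or 4, with adjusted p between 0.054 and 0.115, and with no filter (0.0634). Without WT foamy library 3 or 4 neither subunit was called, and without WT foamy library 1 there were 4 called, Itgb5 and Itgam having joined.

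Itgb5 was at 30.1, 31.0, 22.7 and 27.0 CPM in WT foamy and 35.3, 39.3, 34.3 and 29.7 CPM in Trem2-/- foamy cells. Its estimate of 0.32 ± 0.13 was larger than those of the 2 called genes but missed the threshold (adjusted p = 0.0602). Itgb5 passed with no filter (adjusted p = 0.00349), in the compared libraries alone (0.0235), and without WT foamy library 1 (0.0496) or Trem2-/- foamy library 4 (0.036). Itga5, by contrast, was estimated at 0.02 ± 0.09 with cholesterol (95% interval −0.17 to 0.22), where it had been 0.35 without. The change between those estimates is the difference of responses given above, which did not pass. Itga6 (0.25 ± 0.12), Itgam (0.18 ± 0.08), Itgb1 (0.09 ± 0.06), Itgav (−0.01 ± 0.10) and Itgal (−0.04 ± 0.15) also did not pass, though Itga6 did with no filter (adjusted p = 0.0311). With total counts alone the estimates of Itga5 and Itgb1 turned to −0.11 and −0.04.

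The spread within groups had a pattern of its own. In the deviations of log2 CPM from group means over 15 libraries, Itga5 went with Itga6 (Pearson r = 0.93) and Itgb5 (0.88) and against Itgb1 (−0.92). Itga4 and Itgb2 had an r of 0.0099. The libraries share their depth and their length and GC trends, and the 2 libraries with the steepest slopes stood at opposite ends for Itga5. Its log2 deviation was −0.29 in WT non-foamy library 3 and 0.23 in WT foamy library 1. Itgb1 deviated the other way there, at 0.10 and −0.09. These correlations are descriptions without a test, and the part of the length trend in them was not tested.

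**Figure D4:**
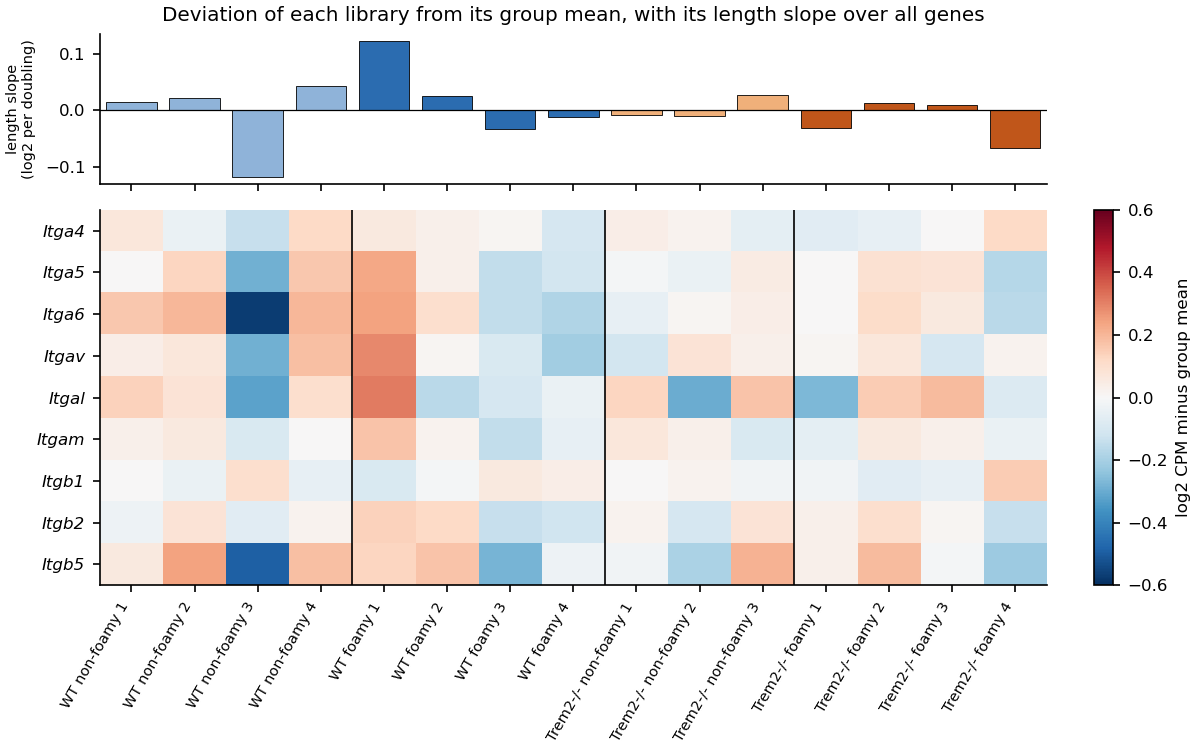
Lower panel, log2 CPM of 9 subunits in each of 15 libraries minus the group mean (colour, red above and blue below). Upper panel, each library's slope of log2 level on gene length over all genes; WT non-foamy library 3 (−0.118) is blue for all subunits but Itgb1, and WT foamy library 1 (0.123) is red for all but Itgb1.

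When the length and GC trend of each library was removed, 6 subunits were called in each genotype comparison. Without cholesterol Itgal (0.37, adjusted p = 0.0347) and Itga6 (0.29, adjusted p = 0.0149) joined the 4. With cholesterol the 6 were Itga4 (0.17), Itgb2 (0.28), Itgb5 (0.39, adjusted p = 0.00247), Itgam (0.22, adjusted p = 0.00858), Itga6 (0.29, adjusted p = 0.0112) and Itgb1 (0.10, adjusted p = 0.0493). The same step raised the genes called over the whole table from 6207 to 6996 and from 4297 to 5172.

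Of the 16 other integrin subunits, 7 were tested. Itgax, the CD11c subunit of complement receptor 4 and a marker of dendritic cells and activated microglia, had a larger estimate for genotype than any of the 9. It was at 57.9, 62.8, 47.4 and 61.2 CPM in WT non-foamy and 98.5, 105.9 and 107.0 CPM in Trem2-/- non-foamy cells. In foamy cells it was at 80.7, 64.1, 63.9 and 58.4 CPM in WT and 91.6, 104.8, 97.2 and 81.5 CPM in Trem2-/- cells. No Trem2-/- library overlapped with WT in either condition. The log2 fold changes were 0.85 ± 0.10 (1.81-fold; adjusted p = 4.35e-07) without and 0.49 ± 0.09 (1.40-fold; adjusted p = 0.000401) with cholesterol. The difference between its responses to cholesterol was −0.36 and did not pass (adjusted p = 0.159), but Itgax passed that test with no filter (adjusted p = 0.0284) and with length and GC trends removed (0.0384). The ratio of Itgax to Itgam per length was 2.24 ± 0.193 in WT non-foamy and 3.71 ± 0.355 in Trem2-/- non-foamy cells (1.98 to 2.40 against 3.36 to 4.07). The summed alpha partners of Itgb2, which are Itgal, Itgam, Itgax and Itgad, stood at 0.611 ± 0.0379 of Itgb2 in WT and 0.726 ± 0.05 in Trem2-/- non-foamy cells. Both ratios were taken over all exonic bases and carry the uncertainty in the level of Itgam. With unshared bases Itgam was at 16.96 CPM per kilobase in WT and 18.66 in Trem2-/- non-foamy cells. Itgax, with no shared bases, was at 11.94 and 21.61, so by that length it lay below Itgam in WT non-foamy cells.

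Itgb7, which pairs with Itga4 and Itgae in gut-homing lymphocytes, went the other way. It was at 10.3, 14.8, 7.88 and 10.8 CPM in WT non-foamy cells and 7.01, 5.30 and 7.61 CPM in Trem2-/- non-foamy cells, with no overlap, where 23.5% of all genes lay wholly lower in Trem2-/- cells. The log2 fold change was −0.72 ± 0.19 (0.607-fold; adjusted p = 0.00342), and with cholesterol it was −0.41 ± 0.17 and did not pass (adjusted p = 0.0732). Itgb7 did pass with cholesterol under 5 alternatives, namely total counts alone (adjusted p = 0.0474), no filter (0.0053), the compared libraries alone (0.0425), length and GC trends removed (0.0496) and without Trem2-/- foamy library 2 (0.0444). The level of Itga4 per length was 3.16 ± 0.692 times that of Itgb7 in WT and 6.48 ± 1.41 times in Trem2-/- non-foamy cells. With cholesterol Itgb4 was lower (−1.06 ± 0.35, adjusted p = 0.024) and Itgae higher (1.66 ± 0.54, adjusted p = 0.024), each on few reads. Itgae had 3 to 9 reads per WT foamy library and 6 to 30 per Trem2-/- foamy library, and Itgb4 had 34 to 78 and 7 to 37. Itgae lost its call without WT foamy library 1 or 2 or Trem2-/- foamy library 1 or 3 (adjusted p 0.0541 to 0.123) and with no filter (0.0514), and Itgb4 without WT foamy library 2 or 4 or Trem2-/- foamy library 1 or 4 (0.0504 to 0.0963).

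Integrins need intracellular adaptors to switch to their binding form. Of 12 tested genes for integrin activation, 2 were higher and 2 lower in Trem2-/- non-foamy cells, and 2 were higher and 3 lower with cholesterol. The calls in either direction were thus less frequent than the 43.6% of all genes without cholesterol. They were more frequent than the 30.2% of all genes with it, a difference that was not tested. Filamin A (Flna), which binds beta subunit tails and holds them inactive, was lower, going from 143.6 ± 20.9 CPM in WT to 87.6 ± 6.88 CPM in Trem2-/- non-foamy cells (log2 fold change −0.71 ± 0.12, adjusted p = 4.33e-05). Tln2, a talin that links tails to actin, was also lower (−0.83 ± 0.16, adjusted p = 0.000152). Dok1 and Cyth1, whose products bind beta subunit tails, were higher by 0.40 ± 0.10 and 0.31 ± 0.09. Fermt3 (kindlin-3), needed for leukocyte integrin activation, was at 125.6 ± 8.35 CPM in WT and 123.8 ± 12.5 CPM in Trem2-/- non-foamy cells. With cholesterol Flna (−0.76) and Tln2 (−0.50) were lower again, and so was Tln1, the main talin of leukocytes (−0.39 ± 0.10, adjusted p = 0.00575).

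Among 21 tested genes of the adhesion complex and its signalling, 5 were higher and 4 lower in Trem2-/- non-foamy cells, and 2 were higher and 6 lower with cholesterol. These counts stand beside 43.6% and 30.2% of all genes called. The scaffold Nedd9 was at 7.63 ± 0.332 CPM in WT and 1.89 ± 0.663 CPM in Trem2-/- non-foamy cells (−2.01 ± 0.20, adjusted p = 2.97e-08). It averaged under 5 CPM and was singled out after its values were seen. Focal adhesion kinase (Ptk2) was at 17.6 ± 2.73 and 8.57 ± 1.06 CPM (−1.04 ± 0.12, adjusted p = 3.46e-07). Both were lower with cholesterol too, at −1.15 ± 0.17 and −0.66 ± 0.11, together with tensin 1 (Tns1, −0.65 ± 0.15) and vinculin (Vcl, −0.56 ± 0.13). The kinase Src was higher by 0.83 ± 0.14 without cholesterol (adjusted p = 4.74e-05), zyxin (Zyx) by 0.57 ± 0.14 and tensin 3 (Tns3) by 0.53 ± 0.11. The other 2 higher genes were the kinase Syk (0.48) and Rsu1 (0.27), which were also the 2 higher with cholesterol (both 0.24). Lyn (−0.36) and the sparsely read Bcar1 (−1.005) completed the 4 lower. In WT cells cholesterol raised Src (0.51 ± 0.13, adjusted p = 0.0364) and Tns1 (0.55 ± 0.15, adjusted p = 0.041), the list's 2 calls there.

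Of 25 listed integrin ligands, 9 were tested. In Trem2-/- non-foamy cells 4 were higher and 1 lower, where 43.6% of all genes were called. Mfge8, which bridges apoptotic cells to Itgav with Itgb3 or Itgb5, was at 549.4 ± 51.8 CPM in WT and 953.0 ± 51.0 CPM in Trem2-/- cells (0.79 ± 0.09, adjusted p = 1.76e-07). Complement C3, whose fragment iC3b is the ligand of Mac-1 and complement receptor 4, was at 24.2 ± 4.03 and 55.3 ± 5.59 CPM (1.19 ± 0.14, adjusted p = 3.94e-07). Edil3, another bridging ligand of Itgav integrins, was higher by 0.22 ± 0.08, and Icam2, a ligand of LFA-1, was lower (−0.49 ± 0.15, adjusted p = 0.00881). The fourth higher ligand, the collagen gene Col4a1, passed at a mean under 1 CPM (adjusted p = 0.0446). With cholesterol 3 were higher (C3 0.76, Edil3 0.37, Mfge8 0.33) and 2 lower (Icam2 −0.38 and Tgfb1 −0.31), where 30.2% of all genes were called. Icam1, the best known LFA-1 ligand, was at 30.1 ± 2.04 CPM in WT and 31.0 ± 2.05 CPM in Trem2-/- non-foamy cells. Spp1, the tested ligand with the highest CPM, was at 6761 ± 468 CPM in WT and 6486 ± 350 CPM in Trem2-/- non-foamy cells. It was not called in either genotype comparison.

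Among the 10 membrane partners, chiefly tetraspanins that gather integrins into microdomains, 8 were higher and 1 was lower in Trem2-/- non-foamy cells, and 7 were higher and 0 lower with cholesterol. Over all genes 21.0% were called higher without cholesterol and 14.3% with it. The list's median log2 fold change was 0.32 without and 0.29 with cholesterol, against 0.0167 and 0.00033 over all genes. Cd37 was higher by 0.67 ± 0.09 (adjusted p = 3.12e-06), Cd82 by 0.44 ± 0.08, the urokinase receptor Plaur by 0.40 ± 0.08 and Cd53 by 0.37 ± 0.09. Cd81 was the exception (−0.36 ± 0.11, adjusted p = 0.00979). With cholesterol Cd53 (0.44), Cd151 (0.43), Cd82 (0.34) and Cd63 (0.33) led. In WT cells Cd37 was the list's single call for cholesterol, at 20.5 ± 0.663 CPM without and 26.3 ± 2.71 CPM with it (0.36 ± 0.09, adjusted p = 0.0243).

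**Figure D5:**
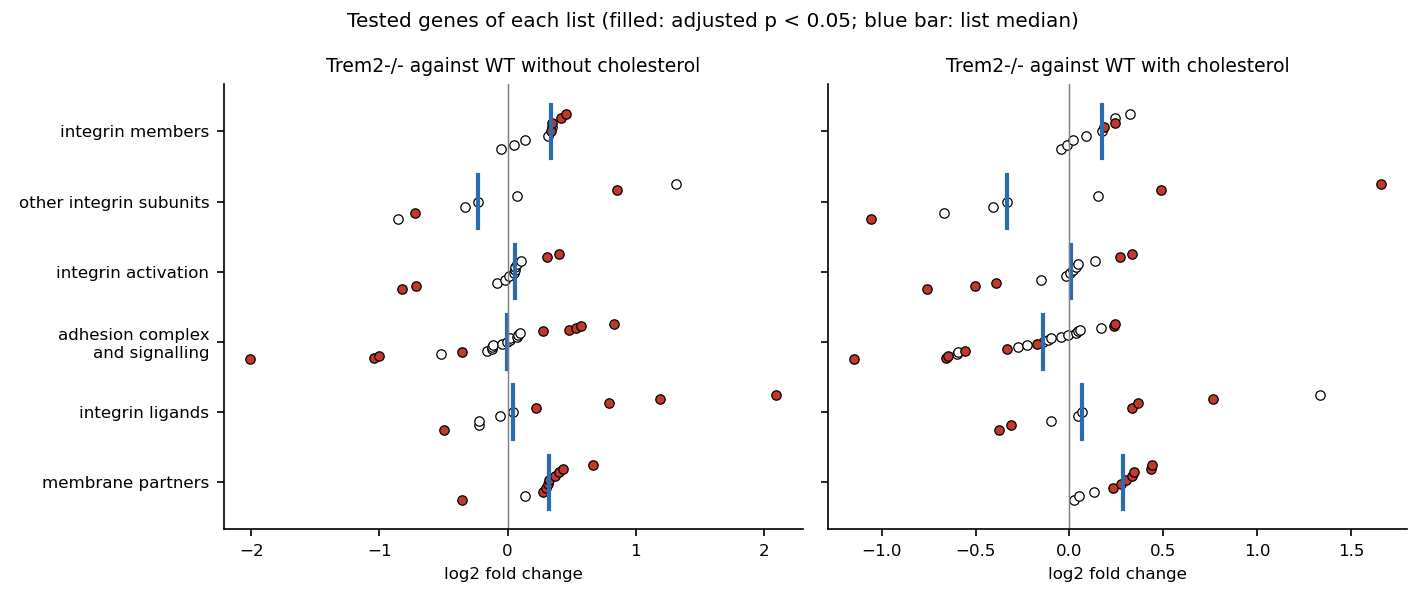
Fitted log2 fold changes of all tested genes in 6 lists for Trem2-/- against WT, without cholesterol (left) and with it (right, narrower axis); filled points passed an adjusted p of 0.05 and blue bars are list medians. The subunit list and the membrane partners have medians of 0.34 and 0.32 without cholesterol, while the adhesion complex list spreads from −2.01 to 0.83.

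Each subunit was last set beside the 9646 tested genes averaging 5 CPM or more, by the Pearson correlation of log2 CPM over the 15 libraries. Itgb2 was closest to the sphingosine receptor gene S1pr2 (r = 0.985), the CSF1 receptor gene Csf1r (0.983) and the integrin ligand gene Mfge8 (0.972), and 264 genes had an r over 0.9. Itga4 was closest to Lmbrd2 (0.956), Ccdc88a (0.956) and 9330175E14Rik (0.954), and Itga5 to Mief1 (0.975), Tbc1d2b (0.966) and Etv3 (0.959). Itgb5 was closest to Gak (0.963), Itga6 to Marchf6 (0.961) and Itgb1 to Rnft1 (0.964). For Itgal the closest was Kif21b (0.922), for Itgam Tnpo2 (0.889) and for Itgav Usp31 (0.876). Itgam and Itgav had no gene with an r over 0.9. The libraries share genotype, depth and length trends, so likeness over them says nothing of shared control.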

How the data were processed

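RNA from 15 BV2 libraries (TruSeq, NovaSeq per the study's methods) was analysed from the raw read counts per gene that the authors deposited, 1 table of whole numbers per library with no normalization. Per those methods, reads were trimmed with Trimmomatic, aligned to GRCm38 with HISAT2 and counted with featureCounts in CHURP. Strand setting and treatment of multiply matched reads are not given in the sources used here. Groups came from the sample titles.

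Counts were scaled with TMM factors and filtered with filterByExpr (minimum count 10), leaving 14237 genes with 99.97% of counts. All 15 libraries were fitted with 1 mean per group with the quasi-likelihood functions glmQLFit and glmQLFTest (edgeR 4.0.16, R 4.3.3), and p-values were adjusted over all genes (Benjamini-Hochberg, called under 0.05). Errors of log2 fold changes are s.e. from the fit. The fit was also run on simulated counts. These had none of the length and GC trends of the real libraries, so they cannot show how the fit behaves under such trends. CPM values are after TMM scaling, and lengths and gene positions are from GENCODE M21.

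The 10 members and the other lists were chosen with earlier results of these data known. Named genes were all integrin subunits, per list and comparison up to 4 called genes with the largest log2 fold change at a mean of at least 5 CPM plus counter-examples, and for each member the 3 most correlated genes. Genes under 5 CPM or outside the first 4 complete counts. Alternatives were DESeq2 1.42.0, RLE factors, total counts alone, no filter, a stricter filter of 10 counts in each library, a fit of the compared libraries alone, a replicate block and each library left out. Removing length and GC trends and the other lengths were added after the data were seen.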

Additional observations from a re-analysis of the deposited data

Results flagged for a closer look

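Itgal was at 3.70 CPM in WT non-foamy library 3 while the other 3 libraries of the group were at 4.90 to 5.08 CPM, a gap of 0.865 of the group's range. Itga6 in the same library was at 22.2 CPM, against 36.8 to 37.9 CPM in the other 3, a gap of 0.929 of the range. These were the 2 values that stood out among 48 gene and group combinations examined over integrin subunits in groups of 4, and chance alone marks about 1 in 20. Both fall in the library whose level fell by 0.118 on the log2 scale per doubling of gene length, and the part of that trend was not tested.

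In the lists around the integrins, the response to cholesterol differed between the genotypes, by the interaction test, for 3 genes. They were 1 of 21 tested adhesion complex genes, 1 of 9 ligands and 1 of 10 membrane partners. Of the 12 integrin activation genes and the 7 other subunits tested, 0 were called. Over all genes 3.64% were called, and whether the lists exceed that share was not tested. Among the marker lists, Cd14 (0.52), Kdr (1.19) and Vwf (−1.07) were called as well. The difference (Trem2-/- minus WT, log2) was −0.79 for Src (adjusted p = 0.0235, edgeR), −0.46 for the bridging ligand Mfge8 (adjusted p = 0.0368) and −0.54 for the tetraspanin Cd37 (adjusted p = 0.0195). Src was at 5.21 ± 0.464 and 7.40 ± 1.16 CPM in WT cells without and with cholesterol (n = 4 each), and at 9.25 ± 1.11 (n = 3) and 7.59 ± 1.03 CPM (n = 4) in Trem2-/- cells. Mfge8 was at 549.4 ± 51.8 and 670.8 ± 71.1 CPM in WT, and at 953.0 ± 51.0 and 844.9 ± 80.5 CPM in Trem2-/- cells. For Cd37 the means were 20.5 ± 0.663 and 26.3 ± 2.71 CPM in WT, and 32.6 ± 4.22 and 28.8 ± 0.768 CPM in Trem2-/- cells. No integrin subunit was called in this test as fitted, although Itga5 was with length and GC trends removed, and Itgax was with those removed or with no filter.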

How the results depend on the processing

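Over 45 fold changes of the 9 tested subunits and 756 alternative values, 724 kept their side of the threshold, 15 lost a call, 17 gained one and 0 turned a called direction. Where neither fit made a call, the sign turned in 54 of 885 cases, counting 4 further subunits. In the cholesterol responses 0 subunits were called under every alternative run. For Trem2-/- against WT without cholesterol, 4 subunits were called by DESeq2, 1 with total counts alone, 5 with no filter, 4 in the compared libraries alone, 6 with length and GC trends removed and 3 to 5 with 1 library left out. With cholesterol, 2 were called by DESeq2, 0 with total counts alone, 3 with no filter, 3 in the compared libraries alone, 6 with the trends removed and 0 to 4 with 1 library left out. For the difference between the responses, 1 (Itga5) was called with the trends removed and 0 otherwise. The alternatives with total counts differ by construction in the scaling, and the cause of the other moves was not tested.

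With the replicate number as a factor (replicate block), 0, 0, 4, 2 and 0 subunits were called in the 5 comparisons, as without it, so it changed no count. The labels do not say whether the numbers pair the libraries. Correlations of deviations cannot decide it, because libraries also carry length and GC trends. Deviations of the 21 same-number pairs correlated at −0.40 to 0.64 (median −0.099, 6 over 0.1), and 4 of 15 libraries correlated best with their own number. Levels per length moved by over 1 SD in 7 of 40 group means with total counts, in 25 of 40 with the principal transcript's length and in 9 of 40 with unshared bases. Depth limits the subunits with few reads, such as Itgb3 with 8 in all and Itgae with 3 to 30 per library.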
